A study of Drosophila melanogaster with 3 samples.

Results

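The distal peaks of the X chromosome are sites bound by the tagged transcription factor topi-eGFP that lie away from gene starts and outside exons. They were taken from the reproducible peak set of the study, the peaks that passed the irreproducible discovery rate (IDR) procedure on the dm6 genome build, as those on X whose summit (the highest point of the peak) stood more than 500 bp from every annotated transcription start site (TSS) and in no annotated exon. Of the 8424 peaks of the set, 1701 were on X. Of these, 612 had a summit within 500 bp of a TSS and 53 lay further away but in an exon, which left 1036 distal X peaks (12.3% of the whole set). The 500 bp limit cut through a continuous range, since 42 X summits outside exons lay 401 to 500 bp from a TSS, with a median signal of 189, and 43 lay 501 to 600 bp away, with a median signal of 175. Among the members, 17 are further summits of an interval that is already listed. The autosomes held 3880 distal peaks of the same definition.

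The libraries were chromatin immunoprecipitations with an anti-GFP antibody from whole white prepupae of a transgenic Drosophila melanogaster line that carries topi with GFP at its C-terminal end. There was 1 group of 3 biological replicates, with male and female animals pooled, and no second genotype, stage or treatment. The chromatin was sonicated to fragments of 200 to 800 bp. Whole animals mix every tissue, so a peak does not tell which cells were bound, and fewer bound cells and weaker binding per cell cannot be told apart. Because the sexes were pooled, X chromosome DNA was present in fewer copies than autosomal DNA, and the control library against which enrichment was calculated is not analysed here. The part of copy number in the X against autosome values below was not tested.

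The topi gene (matotopetli) encodes a zinc finger protein known from the testis, where it belongs to the tMAC complex, a relative of the cell cycle complex dREAM that is needed in spermatocytes for meiotic entry and for the spermatid gene program. White prepupae stand at the start of metamorphosis, when a pulse of the steroid hormone ecdysone remodels the animal and the male larval gonad already holds spermatocytes. The X chromosome of flies is single in males, and in male somatic cells the MSL complex, with the roX RNAs, raises the output of its genes after landing at sites rich in GA repeats. Distal elements in introns and between genes are the usual place of enhancers.

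The DNA under the strongest and the weakest distal X peaks is shown first, because one 5-base motif described at the end is visible in it. Each line gives the summit base and 100 bases on each side of it from the dm6 genome (RefSeq assembly), plus strand, for the 8 strongest and then the 2 weakest peaks. Capitals mark CACTG, GAGAGAGA, CACACACA or the reverse complement of any of them. Repeats of 8 bases in the other phase, such as AGAGAGAG, are not marked.
CG32772, chrX:4910281-4910481: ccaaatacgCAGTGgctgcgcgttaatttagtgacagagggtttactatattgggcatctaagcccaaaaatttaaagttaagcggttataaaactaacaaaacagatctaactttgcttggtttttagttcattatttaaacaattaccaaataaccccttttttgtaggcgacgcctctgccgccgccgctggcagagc
LPCAT, chrX:9579191-9579391: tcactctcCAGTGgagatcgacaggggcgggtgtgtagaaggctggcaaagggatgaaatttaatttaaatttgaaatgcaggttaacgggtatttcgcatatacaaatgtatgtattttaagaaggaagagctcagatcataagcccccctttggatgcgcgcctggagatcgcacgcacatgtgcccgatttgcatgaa
norpA, chrX:4324897-4325097: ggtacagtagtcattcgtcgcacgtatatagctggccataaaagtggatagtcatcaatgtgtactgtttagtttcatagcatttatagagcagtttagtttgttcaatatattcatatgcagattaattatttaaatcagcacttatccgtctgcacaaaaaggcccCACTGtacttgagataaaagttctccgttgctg
CG3726, chrX:5918810-5919010: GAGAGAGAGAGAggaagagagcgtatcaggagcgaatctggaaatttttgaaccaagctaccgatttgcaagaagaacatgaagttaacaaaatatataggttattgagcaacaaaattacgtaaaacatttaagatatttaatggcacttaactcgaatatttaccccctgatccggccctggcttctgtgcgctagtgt
Zw, chrX:19668510-19668710: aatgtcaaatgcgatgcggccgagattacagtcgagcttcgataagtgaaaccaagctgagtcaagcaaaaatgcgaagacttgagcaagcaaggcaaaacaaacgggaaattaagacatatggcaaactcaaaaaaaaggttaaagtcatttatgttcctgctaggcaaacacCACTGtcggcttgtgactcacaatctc
Tlk, chrX:3742130-3742330: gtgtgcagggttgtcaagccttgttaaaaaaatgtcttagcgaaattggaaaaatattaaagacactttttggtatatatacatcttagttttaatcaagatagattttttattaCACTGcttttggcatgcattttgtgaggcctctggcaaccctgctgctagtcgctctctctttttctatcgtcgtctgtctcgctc
Hr4, chrX:1951809-1952009: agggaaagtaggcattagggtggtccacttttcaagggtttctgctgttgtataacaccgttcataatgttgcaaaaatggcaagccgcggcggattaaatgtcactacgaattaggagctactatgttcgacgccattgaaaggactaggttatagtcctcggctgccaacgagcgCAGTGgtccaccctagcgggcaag
Raf, chrX:2300602-2300802: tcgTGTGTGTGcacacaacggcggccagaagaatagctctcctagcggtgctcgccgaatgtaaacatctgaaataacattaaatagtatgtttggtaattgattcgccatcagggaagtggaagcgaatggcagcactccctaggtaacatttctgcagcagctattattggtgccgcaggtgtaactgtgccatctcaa
kirre, chrX:2745166-2745366: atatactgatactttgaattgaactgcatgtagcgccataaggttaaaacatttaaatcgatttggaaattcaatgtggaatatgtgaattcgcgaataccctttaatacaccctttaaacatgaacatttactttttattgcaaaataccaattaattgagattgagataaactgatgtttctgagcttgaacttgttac
intergenic near CG10597, chrX:17229818-17230018: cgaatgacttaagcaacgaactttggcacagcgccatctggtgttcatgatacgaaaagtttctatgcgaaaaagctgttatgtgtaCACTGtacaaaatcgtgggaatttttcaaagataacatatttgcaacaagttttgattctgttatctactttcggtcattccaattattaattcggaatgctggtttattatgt
Of the 8 strongest, 6 carried 1 CACTG copy, the CG3726 sequence had none but began with a GA repeat, and the Raf sequence had none but held a CA repeat. The Tlk sequence also holds an unmarked GA repeat of the other phase, read as CTCTCTCT on the strand shown. Of the 2 weakest, the intergenic peak near CG10597 had 1 copy and the kirre peak had none. G and C made up 36.8% to 49.3% of the 8 strongest sequences, above the average of 34.9% over all distal X peaks. The kirre sequence held 30.3% and the one near CG10597 35.3%.

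The strongest distal X peak lay in the first intron of CG32772, at chrX:4910163-4910707, 1279 bp from the nearest TSS. Its signal, the authors' enrichment score over the control, was 3161 in the reproducible set, where it ranked 8 of all 8424 peaks, and the score was 833, 1010.3 and 1330 in replicates 1, 2 and 3. Scores are not scaled between lists, so ranks were used across them, and the peak ranked 7, 13 and 7 in the replicates. The next strongest peak was in LPCAT, which encodes a lysophospholipid acyltransferase, whose score was 2424 and which ranked 21, 34 and 21. The peak in norpA, the phospholipase C of phototransduction, scored 2003 and ranked 30, 54 and 43. The CG3726 peak scored 1969 and ranked 39, 50 and 49.

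The peak in Zw, the glucose-6-phosphate dehydrogenase gene, had a signal of 1955 and ranked 47, 44 and 54 in the replicates. The peak in Tlk, which encodes the Tousled-like kinase, had a signal of 1803 and ranked 59, 61 and 61. A pair of peaks about 4 kb apart stood in Hr4, a nuclear receptor gene of the ecdysone response, with signals of 1756 and 1664. The Hr4 peaks ranked 68, 57 and 65 and 67, 85 and 68 in replicates 1, 2 and 3. The peak in Raf, the kinase that relays Ras signals to MEK, scored 1730.1 and ranked 61, 74 and 63; it lay in a later intron, while the other intronic peaks among the 20 strongest lay in a first intron of some transcript. Further down, Ptp10D, a receptor tyrosine phosphatase gene, had a peak of signal 1335, Prp16, a splicing helicase gene, one of 1258, CHES-1-like, a forkhead factor gene, one of 1221, and spri, which encodes a Rab guanine nucleotide exchange factor, one of 1088. The peaks of Pits (1701), prage (1525), CG8034 (1292), CG12535 (1163) and CG34417 (1135) complete the intronic peaks among the 20 strongest.

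**Figure D1:**
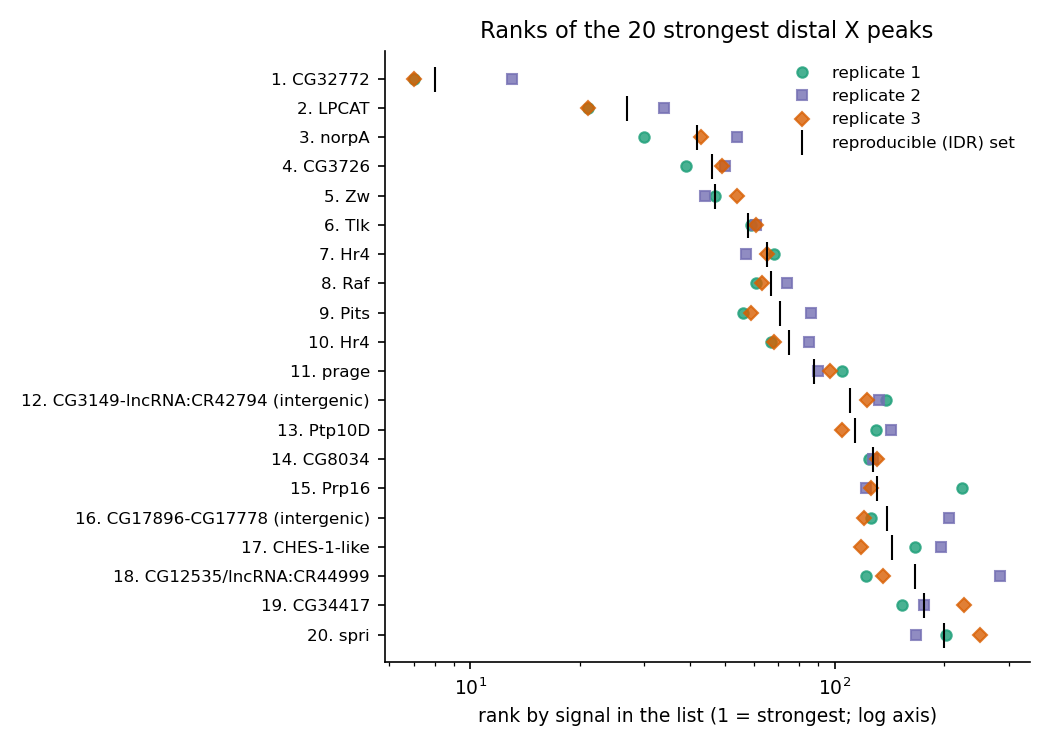
Rank by signal of the 20 strongest distal X peaks in replicates 1 to 3 and in the reproducible set, on a log axis with 1 the strongest peak of a list; each row is 1 peak, named by its host gene or, between genes, by its neighbours. All 20 stood in the top 300 of every list, from rank 7 for CG32772 to rank 285 for the CG12535 peak in replicate 2.

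Of the 20 strongest peaks, 18 were in introns and 2 were between genes. The stronger intergenic peak, chrX:5696024-5696730, lay 581 bp from the TSS of lncRNA:CR42794 and 1337 bp from that of CG3149, scored 1356 and ranked 138, 132 and 123 in the replicates. The other, chrX:493826-494199, lay 510 bp from CG17896 and 609 bp from CG17778, scored 1236 and ranked 126, 206 and 120. Among all members, 25 had a signal of at least 1000, which was 2.41% of the X peaks and 1.91% of the autosomal ones, a difference of 0.506 percentage points whose interval (-0.404 to 1.69) includes 0.

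Distal X peaks sat in introns more often than autosomal ones. Of the 1036, 866 (83.6%, 81.2 to 85.8) were in introns and 170 between genes, against 66.8% (65.3 to 68.3) of the 3880 autosomal peaks in introns. Intervals on shares are exact 95% binomial (Clopper-Pearson) intervals and those on differences are 95% Newcombe intervals; both cover counting error over peaks only, and neighbouring peaks are not independent. The difference was 16.8 percentage points (13.99 to 19.4). In each replicate's own list, cut to its strongest 8424 peaks, the X minus autosome difference was 19.02, 16.9 and 17.1 points, with a mean of 17.7 ± 1.18 (SD, n = 3). It was positive in 3 of 3 replicates, and the exact two-sided sign-flip permutation test gave p = 0.25, the smallest p that 3 replicates allow.

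The DNA available also differed. Introns made up 65.8% of the distal DNA of X and 57.8% of that of the autosomes, so counts were also divided by length. Per Mb of intron, X held 84.9 peaks, against 66.2 on 2L, 62.1 on 2R, 64.2 on 3L and 56.6 on 3R. Per Mb of distal intergenic DNA, X held 32.0 peaks, against 44.4 on 2L, 27.0 on 2R, 51.5 on 3L and 41.2 on 3R. Thus X stood above every large autosomal arm in introns, and between genes it stood above 2R and below the other large arms. Chromosome 4, with 0.820 Mb of distal DNA, held 6 distal peaks, none of them intronic.

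Relative to all autosomes, the X density was 1.40 times as high in introns, 0.774 times as high between genes and 1.27 times as high over all distal DNA. In the strongest peaks of the replicates the intron ratio was 1.49, 1.24 and 1.41, a mean of 1.38 ± 0.131 (SD, n = 3). The intergenic ratio averaged 0.722 ± 0.0451 and was under 1 in 3 of 3 replicates. The ratio over all distal DNA averaged 1.24 ± 0.101. The exact two-sided sign-flip permutation test on the log2 ratios gave p = 0.25 for each of the 3 ratios. Replicate 2 had the lowest value of all 3 ratios.

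The ratios depended on how much DNA next to the centromeres was counted, which the large autosomal arms of dm6 hold in stretches with few or no peaks. Without the 5 Mb next to the centromere of X and of each large autosomal arm, an alternative chosen after seeing the data, the intron density was 90.7 per Mb on X, against 70.1 on 2L, 76.7 on 2R, 76.1 on 3L and 71.6 on 3R. The X to autosome ratio in introns was then 1.23, against 1.40 with whole arms, the intergenic ratio 0.822 and the ratio over all distal DNA 1.18. In the replicates the intron ratio was 1.32, 1.09 and 1.25, a mean of 1.22 ± 0.116 (SD, n = 3; exact sign-flip permutation p = 0.25), so X remained above the autosomes in 3 of 3 replicates by a smaller margin. Intergenic density on X, 47.3 per Mb, then stood between 45.9 on 2R and 79.1 on 3L.

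**Figure D2:**
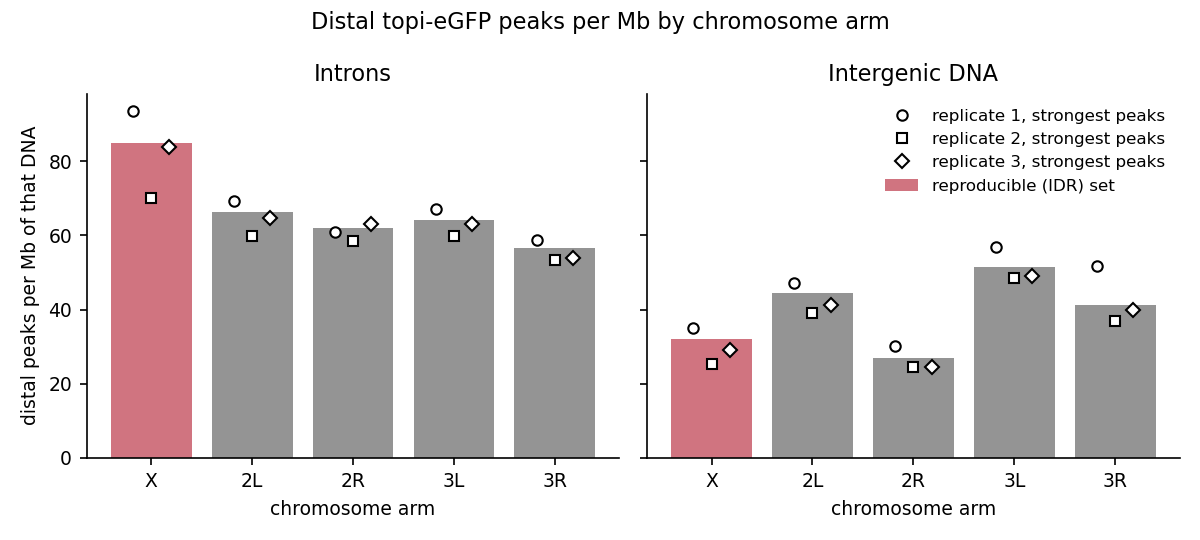
Distal peaks per Mb of intron (left) and per Mb of distal intergenic DNA (right) on X and the 4 large autosomal arms; bars are the reproducible set and open symbols the strongest 8424 peaks of each replicate. X is the highest arm for introns in the reproducible set, at 84.9 per Mb, and lies within the range of the autosomal arms between genes, at 32.0 per Mb.

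X also took a larger share of the reproducible than of the weaker intronic peaks. The pooled relaxed list holds 30000 peaks, background included, and 20304 of them do not share at least 50% of either peak with a reproducible one. Distal peaks among these relaxed-only ones numbered 2630 on X and 11874 on the autosomes. X took 25.04% of reproducible and 20.8% of relaxed-only intronic peaks, a difference of 4.21 percentage points (2.56 to 5.89). Between genes X took 11.7% and 13.1%, a difference of -1.47 points (-3.29 to 0.498). Away from the distal class, at promoters and in exons, X took 18.96% and 18.02%, a difference of 0.939 points (-0.678 to 2.58). When each replicate's strongest peaks were set against the rest of its own list, the intronic difference was 6.18, 2.81 and 3.30 points, a mean of 4.09 ± 1.82 (SD, n = 3; exact sign-flip permutation p = 0.25). Between genes it was -0.933, -1.20 and -2.51 points. At promoters and in exons it was 3.32, -0.854 and 0.00151 points, a mean of 0.824 ± 2.21 (SD, n = 3; exact sign-flip permutation p = 0.75). Replicate 1 thus had a larger X share of strong peaks there too.

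Most distal X peaks recurred in the replicates, and recurrence followed signal. Both follow in part from the choice of members. The IDR procedure selects peaks for agreement between these replicates, and the signal comes from the same libraries pooled. Among the strongest 8424 peaks of replicates 1, 2 and 3, 936 (90.3%), 809 (78.1%) and 940 (90.7%) of the 1036 were found, with an overlap of at least 50% of either peak. The autosomal shares were 87.7%, 83.2% and 88.4%. X peaks were thus recovered more often than autosomal ones in replicates 1 and 3, by 2.64 points (0.452 to 4.61) and 2.36 points (0.206 to 4.28), and less often in replicate 2, by -5.11 points (-7.97 to -2.41). The mean difference over replicates was -0.0362 ± 4.39 points (SD, n = 3; exact sign-flip permutation p = 1). In all 3 replicates together, 706 (68.1%) of the X peaks and 69.8% of the autosomal peaks were found, a difference of -1.67 points (-4.90 to 1.46) that became 3.74 points (1.04 to 6.25) for presence in replicates 1 and 3 alone. Of the other X peaks, 239 were found in exactly 2 replicates, 89 in 1 and 2 in none, and the whole relaxed lists of 30000 held 1011, 1023 and 1035 of them.

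Members were split by signal into 4 classes of 259 peaks. Of the strongest X class 99.6% was found in all 3 replicates, and of the weaker classes 95.8%, 66.4% and 10.8%. In the weakest class, with signals of 93.7 to 121, replicate 1 held 72.2% of the X peaks, replicate 2 37.8% and replicate 3 66.4%. The autosomal shares in their weakest class were 66.0%, 48.7% and 59.0%. The replicates thus differed most over the weak X peaks, and replicate 2 was the low one. The intron share on X was 89.2%, 81.5%, 84.2% and 79.5% in the classes, strongest first, and on the autosomes 67.1%, 67.3%, 66.0% and 66.8%.

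**Figure D3:**
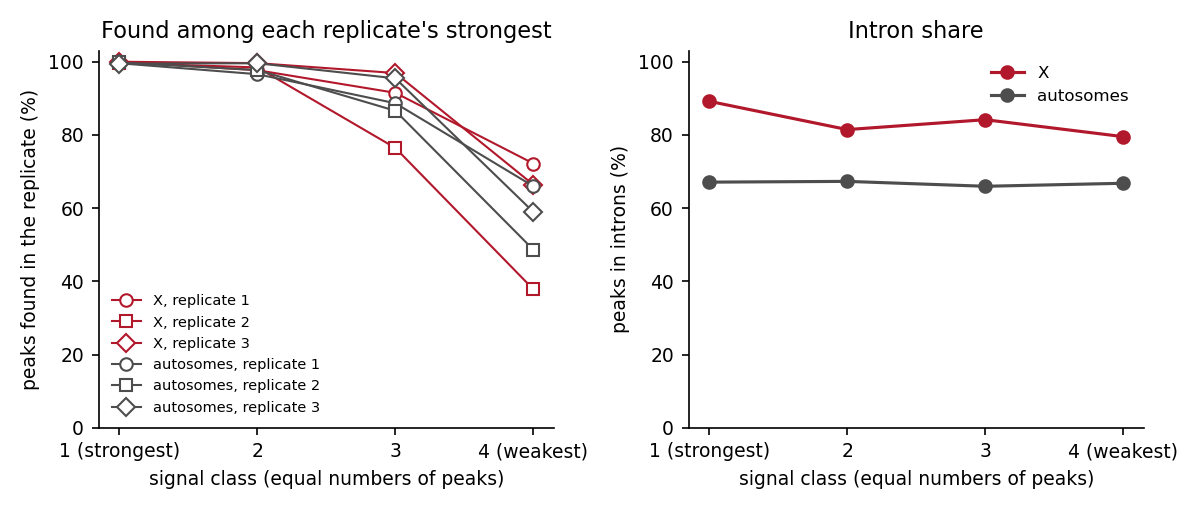
Left, percent of distal peaks found among the strongest 8424 peaks of each replicate, by 4 classes of pooled signal with equal numbers of peaks, for X (red) and autosomes (grey); right, percent of the same peaks that lie in introns. In the weakest class replicate 2 held 37.8% of the X peaks and 48.7% of the autosomal peaks, the lowest point of each chromosome class.

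As a group the X peaks had signals close to those of autosomal ones, and the replicates differed in which was stronger. Their signal ran from 93.7 to 3161 with a median of 176 and quartiles of 121 and 316, and the autosomal median was 179. The median rank in the reproducible set was 4326 on X and 4236 on the autosomes. In the replicates the X minus autosome difference in median rank was -136, 315 and -152, where a negative value means a stronger X, with a mean of 9.17 ± 265 (SD, n = 3; exact sign-flip permutation p = 1). Across members, the signals of replicate pairs had Spearman correlations of 0.806 (replicates 1 and 2, 998 peaks), 0.861 (1 and 3, 1010 peaks) and 0.845 (2 and 3, 1022 peaks), given as a description because the peaks share libraries.

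Intergenic X peaks had lower signals than intronic ones. Their median signal was 152, against 181 for the intronic X peaks, while the autosomal medians were 177 and 179. The median rank of intergenic minus that of intronic X peaks was 1030, 818 and 554 places in the replicates and 879 in the reproducible set. On the autosomes the same difference was 66 places in the reproducible set. The X difference exceeded the autosomal one in 3 of 3 replicates, by 895, 587 and 405 places, a mean of 629 ± 248 (SD, n = 3; exact sign-flip permutation p = 0.25). The excess was 813 places in the reproducible set at more than 500 bp from a TSS, but 223 at more than 250 bp and 378.5 with protein-coding genes only. Among peaks found in both of the other replicates it was 282 without replicate 1, 238.5 without replicate 2 and 307 without replicate 3.

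The strongest member that was missing from a replicate's strongest peaks was chrX:5086863-5087141, in introns of CG15465 and rg, the gene rugose, which encodes an A-kinase anchor protein. Its signal was 358, it ranked 1349 and 1413 in replicates 1 and 3, and replicate 2 did not list it. The next was a peak of signal 250.1 in bbx and waw, which ranked 1949 and 2935 in replicates 2 and 3 and was not listed in replicate 1. The weakest member, the intergenic peak near CG10597 with a signal of 93.7, ranked 6803 and 7383 in replicates 1 and 3 and 13385 in replicate 2.

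Distal X peaks were spread along most of the chromosome. In windows of 1 Mb the count ran from 4 to 84 with a median of 47. The richest window, chrX:3000001-4000000, held 84 peaks, of which 79 were intronic and 63 were found in all 3 replicates. Its strongest peaks were those of Tlk (signal 1803) and CG12535 (1163), followed by one in N (724), the Notch receptor gene, and one in Myc (721), which encodes the growth regulator Myc. The 3 members that overlap an annotated transposable element were all in this window. The densest stretch of 50 kb, between summits at chrX:3672712 and 3722454, held 19 peaks in Mnt, Rala and Tlk, 15 of them found in all 3 replicates. The windows from 20 Mb onward, toward the centromere, held 14, 17 and 4 peaks, and the last 0.542 Mb held none.

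The higher intron density of X was spread over windows. Of 23 whole X windows, 16 exceeded the intron density of the highest autosomal arm, 66.2 per Mb, against 51 of 108 autosomal windows, 15 of which held no intronic peak while each of the 23 X windows held some. The median intron density was 88.7 per Mb in X windows and 62.2 in autosomal ones. The highest X window reached 141 per Mb, while the highest windows of the large autosomal arms reached 127 to 151 per Mb. Neighbour distances were like those elsewhere, as 65.5% of X peaks had another distal peak within 5 kb, against 63.4% to 70.0% on the large autosomal arms.

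**Figure D4:**
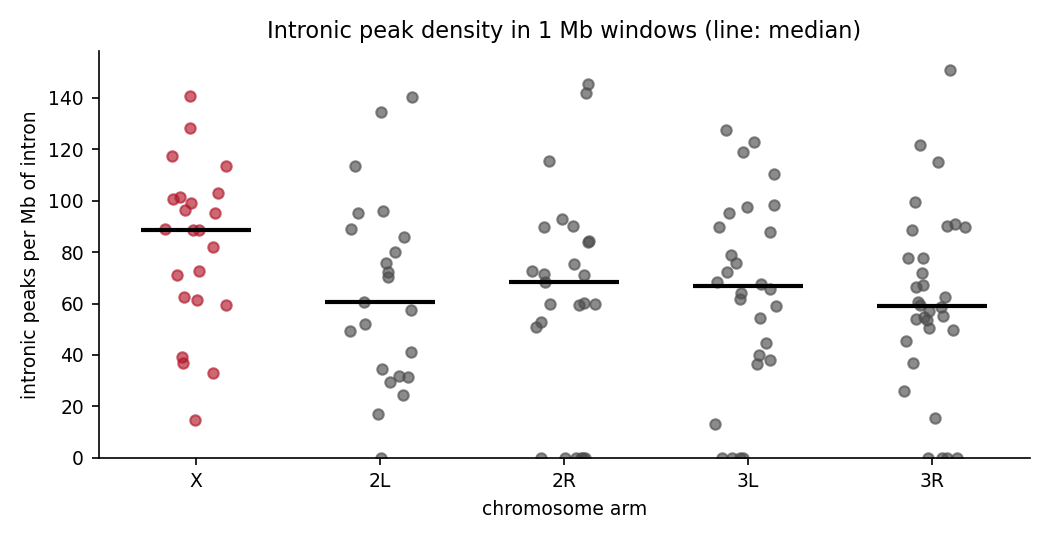
Intronic peaks per Mb of intron in each whole 1 Mb window (points) and the median of each arm (lines), for X and the 4 large autosomal arms. The X median is 88.7 per Mb, above the arm medians of 59.0 to 68.4, and the ranges of single windows overlap. Windows next to the centromeres are included, and 15 autosomal windows hold no intronic peak.

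Distal X peaks lay a median of 3149.5 bp from the nearest TSS (quartiles 1403 and 7139), and the farthest, in CG43759, was 43593 bp away. Of the intronic peaks, 63.2% were in a first intron of some transcript, against 67.6% on the autosomes, a difference of -4.47 points (-8.18 to -0.828). The share of intron DNA that lies in first introns was not counted, and its part in this difference was not tested. In all, 286 of 2196 protein-coding X genes (13.0%) hosted at least 1 distal peak, against 8.59% of the autosomal coding genes, a difference of 4.44 points (2.995 to 5.99). Genes were not matched for length. Distal intron DNA came to 10.2 Mb on X and to 42.6 Mb on the autosomes, which have 11749 coding genes, and its part in the difference was not tested. Of the X host genes, 51.0% also had a reproducible peak within 500 bp of any of their TSSs, while 22.9% of the X coding genes without a distal peak did. The contrast was not particular to X, since the autosomal shares were 54.7% and 21.0%. The part of gene length in it was not tested. Hosts were long genes, with a median length of 18.6 kb, against 2.52 kb for all coding X genes.

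Some long genes held many distal peaks, and the share of X intron DNA in such genes was not counted. There were 55 coding genes with at least 5 distal peaks, holding 459 of the members, 16 with at least 10, and 133 with 1. The gene with most was kirre, which encodes an immunoglobulin-domain adhesion protein of myoblast fusion, with 28 peaks over 394 kb and 20 of them in all 3 replicates. CG43658 held 23, CG1677 19, Tlk 17 and Mnt 15, the last a gene for an antagonist of Myc. Per 100 kb of intron Mnt stood at 64.0 peaks and kirre at 8.40. The kirre value is close to the density in introns of X as a whole, 84.9 per Mb. The part of gene length in the kirre count was not tested. Other genes with 10 or more included CG32816 with 14, Raf and CG12535 with 13 each, Ten-a, a teneurin gene of synaptic matching, with 12, and Bx, which encodes a LIM-only cofactor, with 11. Hr4, mew (an integrin alpha subunit), spri and CG32719 held 10 each. Hosts overlap in places, since all 19 CG1677 peaks also fall within the bounds of the non-coding gene lncRNA:CR44357, which spans 26 peaks.

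Gene groups were read by counting listed X genes with at least 1 distal peak, either inside the gene or between genes with that gene's TSS the nearest. Of all 2196 coding X genes, 16.0% had one by this count, but the share was 4.45% for genes under 5 kb, 31.8% for 5 to 20 kb, 71.3% for 20 to 50 kb and 69.6% for longer ones. Among transcription factor genes 12 of 24 had a peak, 58 peaks in all, with a median gene length of 17.5 kb. Hr4 held the strongest, and the others near the top were Bx (11 peaks, strongest signal 451), mamo, a zinc finger gene (9 peaks, 447), ct, the homeobox gene cut (6 peaks, 409), unc-4, a homeobox gene (2 peaks, 335), and disco-r, a zinc finger gene (4 peaks, 259). The ecdysone genes br and usp had promoter peaks but no distal peak.

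Among signalling genes 11 of 17 had a distal peak, 50 peaks in all, with a median gene length of 13.4 kb. Raf had 14, followed by Ptp10D with 8. N had 2 peaks, the stronger at 724 with ranks of 589, 437 and 531. Moe, which encodes the cytoskeletal linker moesin, had 5 peaks (strongest 653), sgg, the GSK3 kinase of Wingless signalling, 5 (639), and mnb, the minibrain kinase, 4 (624). Among neuronal genes 9 of 20 had a distal peak, 21 in all, with a median gene length of 41.4 kb. Apart from norpA their peaks were modest. The strongest were 275 in elav, an RNA-binding protein gene, 254 in Fas2, an adhesion gene, 195 in dnc, the cAMP phosphodiesterase gene, 165 in Nrg, the neuroglian gene, and 151 in dlg1, the discs large scaffold gene. Of the channel genes on the list, Ork1 had 2 distal peaks (strongest 133) and Hk, a channel subunit gene, had 1 (144), while para, Sh, cac, eag and the acetylcholine receptor genes nAChRalpha3 and nAChRalpha7 had none.

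Of 7 listed genes of sex determination and dosage compensation, only Sxl, the switch gene of female identity, had a distal peak. That peak had a signal of 539.8 and ranked 822, 1452 and 699 in the replicates. The genes roX1, roX2, snf, mof, sisA and sc had none, and the median gene length of the list was 1.44 kb. The member nearest to roX1 stood 4588 bp from it, in yin, with a score of 133 and ranks of 4129, 9007 and 8025. The member nearest to roX2 was 18533 bp away, scored 269 and ranked 2926, 2551 and 2535, while a reproducible peak that is not distal lay 72 bp from roX2. No summit of the reproducible set lay inside either roX gene.

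Short motifs were counted on both strands within 100 bp of each summit, and the background was every tile of the same length in distal X DNA. GA repeats are the core of the sites where the MSL complex lands and of GAGA factor sites. GAGAG was in 20.6% (18.1 to 23.2) of X peaks, 22.1% of autosomal peaks and 21.3% of X tiles, a difference from the autosomes of -1.58 points (-4.28 to 1.29). The longer repeat GAGAGAGA, which contains it, was in 1.83% of X peaks and 1.26% of autosomal peaks, a difference of 0.571 points (-0.199 to 1.63). Tiles differed in the same direction, with the repeat in 1.56% of X tiles and 1.06% of autosomal tiles. Within 200 bp of the summit the difference between X and autosomal peaks was 2.25 points and its interval excluded 0 (0.774 to 3.995). Tiles of that width were not counted, so this difference has no background to be read against. The CA repeat CACACACA was in 4.15% of X peaks and 2.27% of autosomal peaks, a difference of 1.88 points (0.708 to 3.34), but X tiles held it in 6.543% and autosomal tiles in 4.32%. In both chromosome classes the peaks held the CA repeat less often than distal DNA tiles. The difference between the classes was 0.811 points at more than 1000 bp from a TSS and 0.887 points in the strongest 50% of peaks, with intervals that included 0.

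Of 16 motifs counted in all, the X minus autosome interval excluded 0 for 5, 4 higher and 1 lower on X, with no adjustment for their number. The largest difference was for TGCATA, found in 20.7% of X peaks, 15.3% of autosomal peaks and 14.4% of X tiles, a difference from the autosomes of 5.37 points (2.75 to 8.17). In the replicates' own lists it was 4.09, 4.43 and 4.59 points, a mean of 4.37 ± 0.254 (SD, n = 3; exact sign-flip permutation p = 0.25). In the strongest 50% of the reproducible peaks the difference was 3.46 points (-0.163 to 7.43). AGATAAG, which holds the letters GATA factors read, was in 2.12% of X and 3.48% of autosomal peaks, a difference of -1.36 points (-2.31 to -0.160). Tiles held it in 2.14% on X and 2.53% on the autosomes. TATCGATA, the site of the factor DREF, was in 10 X peaks (0.965%) and 13 autosomal peaks (0.335%), a difference of 0.630 points (0.130 to 1.44). Its tile shares were 0.502% on X and 0.432% on the autosomes, and none of the 259 strongest X peaks held it. TTTGAA, the letters of the cell cycle element that MuvB complexes bind in mammals, was in 32.5% of X peaks, 31.9% of autosomal peaks and 22.7% of X tiles. The summits are poor in G and C, 34.9% on average on X and 34.2% on the autosomes against 40.2% in X tiles, so TTTGAA was also counted by base composition. It was in 34.4% of X peaks and 39.2% of X tiles under 30% G+C, 36.5% and 33.0% at 30 to 35%, 34.1% and 25.8% at 35 to 40%, and 20.1% and 14.2% above.

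The most frequent motif was CACTG, which was added to the count after the sequences had been seen. It stood in 50.9% (47.8 to 54.0) of X peaks, 47.4% of autosomal peaks, 41.7% of relaxed-only X peaks and 28.0% of X tiles. The share was above that of tiles in each class of base composition, at 28.4% against 14.3% under 30% GC, 50% against 22.8% at 30 to 35%, 61.5% against 26.3% at 35 to 40%, and 62.0% against 33.6% above. At least 2 copies were in 16.4% of X peaks, 13.1% of autosomal peaks and 5.20% of X tiles. The X minus autosome difference of 3.47 points (0.0474 to 6.89) was not stable, since 1 of 10 alternative settings kept its interval above 0.

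CACTG copies did not sit at the summit but on either side of it. Per 20 bp, 100 X peaks held 3.38 to 4.34 copies within 40 bp of the summit and 10.9 to 11.9 copies between 60 and 100 bp on either side. Expressed per kb, there were 4.78 copies in the flanks 40 to 119 bp out, 1.82 in the central 80 bp and 1.81 beyond 300 bp. Autosomal peaks had 4.16, 1.70 and 1.89 copies per kb in the same places, and relaxed-only X peaks 2.93, 2.27 and 1.79. When each member was centred on its summit in replicates 1, 2 and 3, the flanks held 4.70, 4.43 and 4.49 copies per kb and the centre 2.03, 2.19 and 2.15. The flank minus centre difference averaged 2.42 ± 0.227 per kb (SD, n = 3), positive in 3 of 3 replicates, with an exact two-sided sign-flip permutation p of 0.25. These 3 values come from largely the same members and the same genome sequence, and the motif was picked from these data. Their common sign is therefore not independent support for the profile. A copy 40 to 119 bp to the left, to the right or on both sides was present in 540 X peaks (52.1%, 49.0 to 55.2), and 156 (15.1%) had one on both sides.

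Flanking copies were found in strong and weak X peaks in shares whose intervals overlap. A copy on either side was in 56.8% (50.5 to 62.9) of the strongest signal class and 52.1% (45.9 to 58.3) of the weakest, in 51.8% of intronic and 53.5% of intergenic X peaks, in 48.2% of autosomal peaks and in 36.3% of relaxed-only X peaks. Base composition changed over the same distances, and its part in the profile was not tested. The GC content of X peaks was 31.7% in the 20 bp at the summit, 36.4% and 36.9% at 60 to 80 bp on the left and on the right, and 44.4% at 200 bp to the left.

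**Figure D5:**
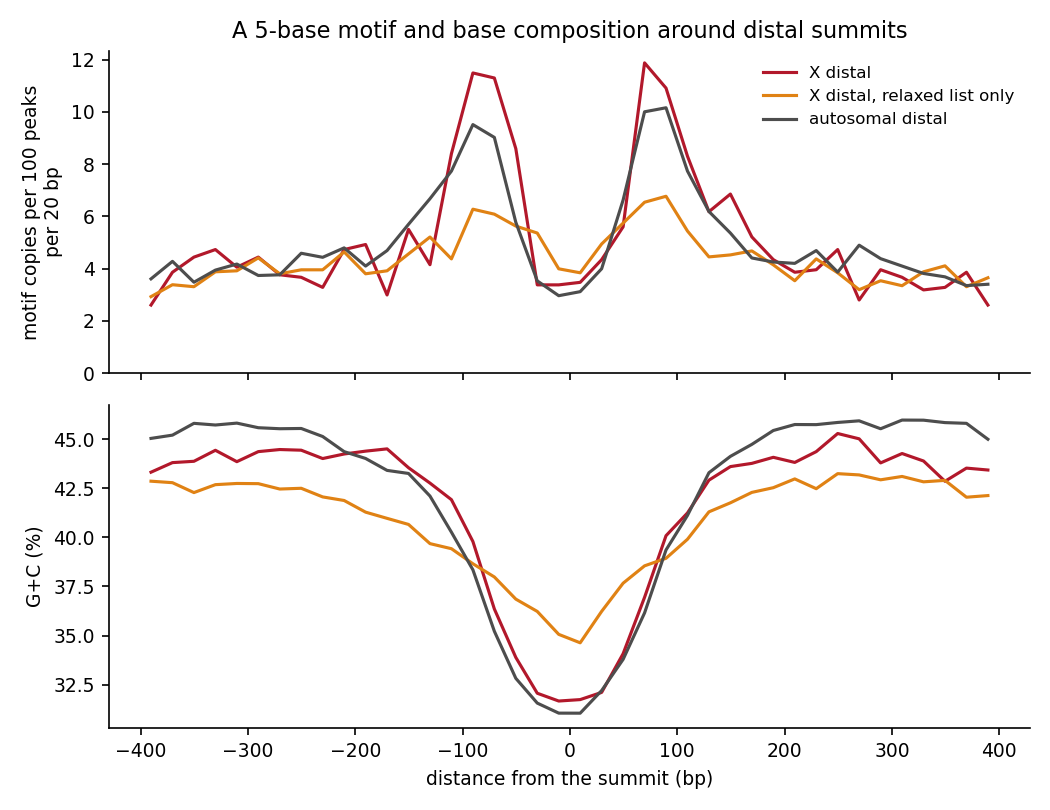
Top, copies of the 5-base motif CACTG (both strands) per 100 peaks in bins of 20 bp by distance from the summit; bottom, GC content in the same bins, for distal X peaks, distal X peaks of the relaxed list only, and distal autosomal peaks. The X curve has a maximum on each side of the summit, up to 11.9 copies, and 3.38 copies at the centre, where GC content is lowest, at 31.7%.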

How the data were processed

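Peaks of chromatin immunoprecipitation libraries from 3 biological replicates of topi-eGFP white prepupae were used as deposited, on dm6. Per the file headers and labels, the authors deposited 1 reproducible list chosen by IDR, 1 relaxed list of the pooled replicates and 1 per replicate. In each, the authors' signal is an enrichment score over a control and their -log10 q-value gives confidence; no source used here names the peak caller, the aligner or the read depth, so the precision of a single score is unknown. The dm3 reproducible list served for chromosome counts only.

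Summits were classified with the Ensembl release 115 annotation, transposable elements left out. Shares, densities, overlaps (at least 50% of either peak) and motif counts were computed with Python 3.11.15, pandas 2.3.3, numpy 2.4.6 and scipy 1.17.1, and figures with matplotlib 3.10.9. Simulated peaks of known density and overlap were used to test the steps. Shares carry 95% intervals; values per replicate were tested by an exact two-sided sign-flip permutation over 3 replicates, which cannot go below p = 0.25. A p of that size says nothing about stability. The labels call the libraries biological replicates and give no separate cultures, so p-values measure only the spread between these samples.

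The members, gene lists and motifs were chosen with earlier results of these data known. Genes were named as hosts or neighbours of the 20 strongest members, as hosts of many members, as up to 6 per list by signal, and as genes of the densest windows; genes named for having no peak, CACTG and its profile were picked with their values in view. Alternatives varied the TSS distance, the annotation, the strength of the set, repeated intervals, replicates, overlap rule, motif window and window size.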

Additional observations from a re-analysis of the deposited data

How the results depend on the processing

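The intron share difference (14.9 to 19.3 points), the X share of distal peaks (20.4% to 21.8%), the density ratio over all distal DNA (1.18 to 1.33) and the intron density ratio (1.38 to 1.499) kept direction and side of the threshold, or stayed within the replicate spread, in their alternatives, except that the intron ratio was 1.23 without 5 Mb next to each centromere. The intergenic density ratio stayed under 1 but moved by more than that spread in 7 of 9 alternatives: 0.827 at over 250 bp from a TSS, 0.718 at over 1000 bp, 0.827 with protein-coding genes only, 0.674 in the strongest 50% of peaks, 0.822 without 5 Mb next to each centromere, and 0.644 to 0.734 without a replicate; without replicate 2 and with 1 peak per interval (0.757) it stayed within the spread. The number of members was 508 in the strongest 50% of peaks and 739 to 863 without a replicate. The difference in median rank was -247 in the strongest 50% of peaks and -295 to 51 without a replicate. The difference in the share found in all replicates changed sign to 1.37 points in the strongest 50% of peaks and 0.565 with whole relaxed lists, and without a replicate ran from -3.08 (replicate 3 left out) to 3.74 (replicate 2 left out, interval 1.04 to 6.25). The GAGAG difference was 0.245 at a 50 bp and 1.18 at a 200 bp window; the GA repeat difference was 2.25 (0.774 to 3.995) at 200 bp. The CA repeat difference was 0.811 at over 1000 bp and 0.887 in the strongest 50% of peaks, both with intervals that include 0. The CACTG difference, added after the data were seen, lost its call in 9 of 10 alternatives and was -0.472 at a 50 bp window; the TGCATA difference lost its call in the strongest 50% of peaks (3.46). The X minus autosome difference in the intergenic minus intron median rank was 378.5 with protein-coding genes only and 238.5 to 307 without a replicate. Causes were not tested. The alternatives for the intron and intergenic ratios, the CACTG difference, the TGCATA difference and the rank difference between intergenic and intronic peaks, and those without 5 Mb, were chosen after the data were seen. X and autosomal values per replicate come from the same library, so their differences are paired by construction. Unknown read depth and 3 replicates limit all values.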
